A study of Mus musculus with 18 samples.

Results

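Whether stimulation of renal tubular cells with TWEAK, and inhibition of the kinase NIK during that stimulation, moved the genes that execute or restrain programmed cell death was examined for 36 genes of the apoptosis and necroptosis machinery. The members were taken by name from the 36528 genes counted in each sample, and 34 of them were tested because at least 4 samples had over 10 reads of them, a rule that 15521 genes met. Hrk and Casp1 did not. In the mitochondrial pathway of apoptosis, survival proteins of the BCL2 family hold the effectors BAX and BAK in check, and BH3-only proteins relieve that restraint, after which cytochrome c leaves the mitochondria and the apoptosome activates caspase-9. In the death receptor pathway, FADD recruits caspase-8, which FLIP (Cflar) restrains. When caspase-8 is inactive, RIPK1 can instead engage RIPK3, which phosphorylates MLKL, and MLKL then breaks the plasma membrane in necroptosis. TWEAK is a TNF superfamily cytokine whose receptor FN14 activates non-canonical NF-κB through NIK, and death of tubular epithelium is a known feature of kidney injury.

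Gene expression was measured by RNASeq in primary renal proximal tubulo-interstitial epithelial cells (RPTEC) of C57BL/6 mice, bought from a commercial supplier. Cells received the vehicle DMSO, TWEAK at 100 ng/mL, or TWEAK at 100 ng/mL with NIK SMI1 at 3 μM, a selective compound that blocks this kinase, and were collected at 6 h or 24 h. Each of these 6 groups held 3 samples, and no group was given NIK SMI1 without TWEAK, so every effect of the compound below is an effect in TWEAK-stimulated cells. No separate animals or cultures were named for the samples. The p-values therefore measure the spread between these samples, which may be technical.

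Between 18040966 and 51956444 reads fell on genes in each sample (median 35374254), and samples of a group differed by more than counting noise, a chi-square per gene of 2.14 to 9.32 over the pairs. Of 16 tubular epithelial markers 12 were tested, and their summed level of 8192 to 10820 CPM (reads of a gene scaled to a common depth) came mostly from keratins, Cdh1 and Epcam. These markers moved with the agents: the sum was 9279 to 9437 CPM with vehicle, 8192 to 8302 CPM with TWEAK and 9036 to 9049 CPM with NIK SMI1 at 24 h. At that time 8 of the 12 were called lower and 2 higher with TWEAK, against 20.7% and 18.3% of all tested genes. With NIK SMI1 against TWEAK, 6 were called higher and 1 lower, against 10.2% and 8.29%. The part of these markers in the results below was not tested. Of the proximal tubule transporters, Slc5a2 had group means of up to 8.11 CPM, whereas Slc34a1 and Slc22a6 were at or near 0 and Hnf4a, a proximal transcription factor, did not exceed 0.0412 CPM, so the last 3 did not show the proximal identity given in the labels. The list also held the proximal markers Lrp2, Cubn and Aqp1, whose levels are not given here, so proximal identity is not judged from these genes. Endothelial, fibroblast and leukocyte markers summed to at most 0.956, 14.05 and 26.0 CPM. Pancreatic islet markers, by contrast, summed to 15.3 to 32.6 CPM in the other groups, to 14.7, 0.235 and 4.66 CPM in the 3 TWEAK samples at 24 h and to at most 0.0870 CPM where NIK SMI1 was added for 24 h. The comparison of NIK SMI1 with TWEAK at 24 h is therefore also given without TWEAK replicates 1 and 3, which leaves the TWEAK sample nearest the inhibitor samples in islet reads. That of TWEAK with vehicle at 24 h is given with replicate 1 as the only TWEAK sample, the nearest to vehicle, and also without replicates 1 and 3, which widens the gap to vehicle. These alternatives were chosen after seeing the data. Each keeps 1 TWEAK sample at 24 h, whose spread is taken from the other groups. A call can therefore be lost in them through fewer samples alone. Between vehicle and the inhibitor at 24 h no sample matched in islet reads, all 7 tested islet markers were lower with the inhibitor, and the islet reads and the agents cannot be told apart. In these bulk samples, fewer cells of a type and less RNA per cell cannot be told apart.

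Per exon length, the members spanned a wide range of levels in these cells. Levels between genes are compared here in RPKM, which divides the reads of a gene by its exon length and by the depth of the sample. Pmaip1, which encodes the BH3-only protein NOXA, had the highest level, with a mean of 151 RPKM over the 18 samples. The pore-forming effector gene Bax followed at 127 RPKM, ahead of Casp8 at 64.6, the survival genes Mcl1 at 63.3 and Bcl2l1 (BCL-XL) at 52.5, and the effector gene Bak1 at 48.4 RPKM. Bcl2, for which the family is named, stood at 11.0 RPKM. Of the death receptor complex, Tradd had 31.0 RPKM, Cflar 25.5, Ripk1 10.9 and Fadd 5.02 RPKM.

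The necroptosis and pyroptosis members were at the lower end. Mlkl had 7.62 RPKM, whereas Ripk3, its activating kinase, had 0.307 RPKM, from 7 to 34 reads per sample. Gsdmd, the pore-forming protein of pyroptosis, was at 0.0782 RPKM with 0 to 19 reads, and Casp1, the inflammasome caspase, had no read in 16 of the 18 samples and at most 2 reads in the others. Casp4, which in the mouse encodes the intracellular lipopolysaccharide sensor also called caspase-11, was at 0.190 RPKM with 1 to 28 reads. Hrk, a BH3-only gene known mainly from neurons, had 0 to 22 reads. Cycs, the gene of somatic cytochrome c, was at 0.391 RPKM, but only uniquely aligned reads were counted and RefSeq lists 3 Cycs pseudogenes by symbol, so its level is uncertain.

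**Figure D1:**
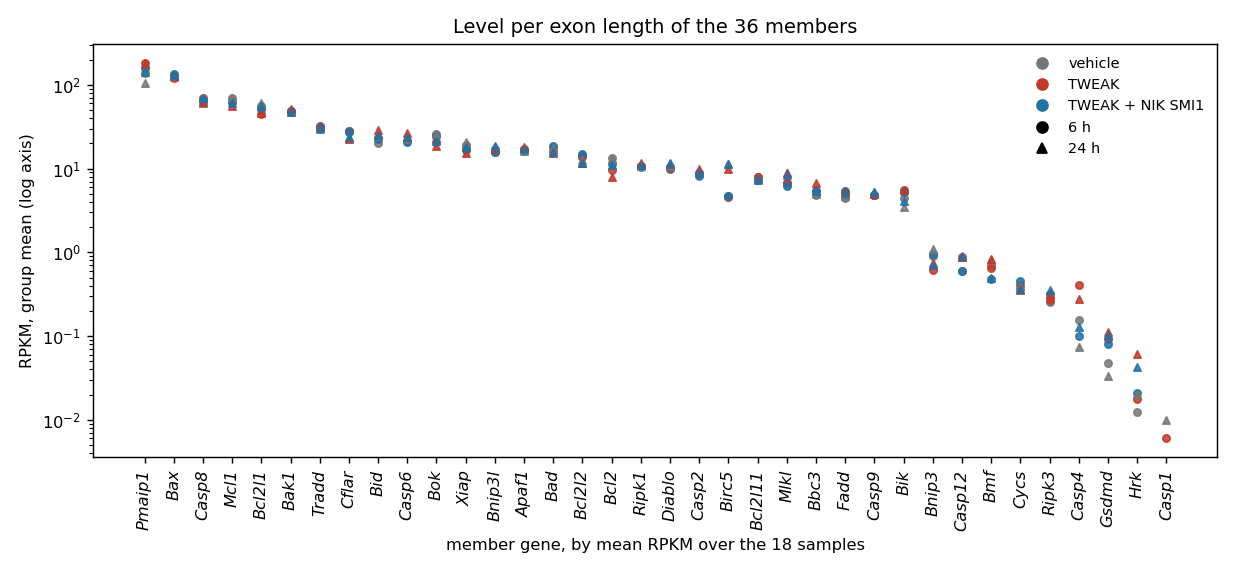
Mean RPKM of each of the 36 members in each of the 6 groups on a log axis, with members ordered by their mean over the 18 samples, circles for 6 h, triangles for 24 h and color for the agent (group means of 0 are not drawn). Pmaip1 and Bax lead, and Ripk3, Casp4, Gsdmd, Hrk and Casp1 lie below 0.31 RPKM on average.

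Because TWEAK signals to NF-κB, the promoter windows of the members were read for the κB consensus, a 10-base motif searched on both strands in its strict form. RefSeq windows of GRCm38.p6, 250 bases before to 50 after each start, were at hand for 31 of the 36 members. Bik, Bnip3l, Gsdmd, Pmaip1 and Tradd had none. The motif was present in 5 of the 31 (16.1%), against 1388 of 27025 genes with a window (5.14%). Counted by window, as some genes have several starts, it was present in 6 of 43 (14.0%) against 1480 of 32851 (4.51%). The windows of Casp4 overlap, so the same match is counted in each of them. Bbc3, Bcl2l1 and Bmf held it at some of their starts and not at others. A match is a description of letters and not a site of binding. The 250 bases before the start are shown for the 4 members that hold it there, with the motif in capitals, since their RNA moved in different directions below.
Casp4, chr9:5308599-5308848, plus strand: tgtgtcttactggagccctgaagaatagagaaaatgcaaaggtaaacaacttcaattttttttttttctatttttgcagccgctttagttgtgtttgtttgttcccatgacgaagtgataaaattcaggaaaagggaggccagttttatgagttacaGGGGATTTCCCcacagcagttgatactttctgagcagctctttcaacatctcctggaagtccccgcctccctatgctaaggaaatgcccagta
Bbc3, chr7:16309333-16309582, plus strand: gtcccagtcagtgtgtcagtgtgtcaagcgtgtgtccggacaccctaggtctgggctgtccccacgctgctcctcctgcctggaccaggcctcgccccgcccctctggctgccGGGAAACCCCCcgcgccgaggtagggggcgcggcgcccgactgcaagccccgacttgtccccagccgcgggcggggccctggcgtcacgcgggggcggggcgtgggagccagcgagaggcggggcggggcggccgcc
Bcl2l1, chr2:152830718-152830967, minus strand: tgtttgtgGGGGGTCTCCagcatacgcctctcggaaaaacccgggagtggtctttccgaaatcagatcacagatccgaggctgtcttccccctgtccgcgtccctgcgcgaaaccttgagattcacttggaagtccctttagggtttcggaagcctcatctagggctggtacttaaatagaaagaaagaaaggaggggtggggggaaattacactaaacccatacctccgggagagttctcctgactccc
Birc5, chr11:117848987-117849236, plus strand: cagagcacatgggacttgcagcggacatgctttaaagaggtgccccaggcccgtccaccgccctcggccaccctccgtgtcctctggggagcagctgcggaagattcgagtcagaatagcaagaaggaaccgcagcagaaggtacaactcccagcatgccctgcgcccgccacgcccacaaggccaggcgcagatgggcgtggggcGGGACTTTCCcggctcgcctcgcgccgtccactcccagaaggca
In Casp4 and Bbc3 (PUMA, a BH3-only target of p53), overlapping matches on both strands form the run in capitals. Its matches begin 93 bases before the start in Casp4 and 137 before it in Bbc3. A second match in Birc5, GGGGCTCTCC, begins at base 21 after the start. In Bmf, the match GGAGTCTCCC begins at the start itself.

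TWEAK against vehicle gave a split within the machinery. The survival genes Bcl2, Bcl2l1 and Mcl1 fell, and the BH3-only genes Pmaip1, Bik and Bid rose at both 6 h and 24 h. The split was not complete, since the BH3-only gene Bad and the effector gene Bok fell at both times. Casp9, Cycs, Diablo, Cflar, Tradd and both necroptosis genes did not pass the test at either time. At 6 h, 9 members rose and 6 fell, which was 44.1% of the tested members, where 23.7% of all tested genes passed (11.7% higher, 12.0% lower). At 24 h, 9 rose and 8 fell, or 17 of 34, where 39.0% of all tested genes passed (18.3% higher, 20.7% lower). The 3 samples of each group did not overlap for 16 members at 6 h and 18 at 24 h, against 36% and 49.7% of all tested genes. The tested members were also counted more deeply than most genes, with a median level of 39.7 CPM against 21.5 CPM. Their changes were small. The median absolute log2 fold change of the members was 0.154 at 6 h and 0.141 at 24 h, against 0.112 and 0.163 over all tested genes. Casp4 alone was called with a change of more than 2-fold, the fold cut-off of the study, at both times, which 1.75% of all genes did upward at 6 h and 2.34% at 24 h, while 0 members fell by as much, against 0.541% and 2.87% of all genes. Casp4, which is among the 9 that rose at each time, passed the read filter only through the TWEAK samples, as described below. Of these calls, 8 of 15 at 6 h and 14 of 17 at 24 h were kept when any 1 of the 18 samples was left out. With replicate 1 as the only TWEAK sample at 24 h, Bad (−0.21), Apaf1 (0.07), Ripk1 (0.10) and Bnip3 (−0.17) lost their calls. With TWEAK replicates 1 and 3 left out instead, Bad (−0.12), Bak1, Apaf1 (0.13), Ripk1 (0.09), Bnip3 (−0.82) and Birc5 lost their calls. In these fits a call can be lost with little change of the estimate, as for Bad in the first, which stood at −0.21 with all samples too.

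Bcl2 had the largest fall among the well expressed members. Its level at 6 h was 116, 105 and 105 CPM in the vehicle samples, 78.2, 76.4 and 78.4 CPM in those given TWEAK, and 89.6, 91.1 and 92.0 CPM when NIK SMI1 was added. At 24 h the vehicle samples had 105, 105 and 105 CPM, the TWEAK samples 65.1, 59.9 and 66.6 CPM, and the samples with NIK SMI1 86.0, 90.4 and 89.1 CPM. The groups did not overlap at either time, and the samples with the inhibitor lay between those with vehicle and those with TWEAK. The log2 fold change with TWEAK was −0.47 at 6 h (standard error [SE] 0.044, adjusted p = 2e-09) and −0.72 at 24 h (SE 0.046, adjusted p = 5.63e-13), a decrease to 0.720 and 0.607 of the vehicle level.

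The other survival genes moved less. Bcl2l1, whose protein BCL-XL guards the mitochondria of epithelial cells, fell from 347 ± 5.8 to 277 ± 5.2 CPM at 6 h (SD, n = 3 each) and from 374 ± 4.8 to 289 ± 7.6 CPM at 24 h, by 0.31 and 0.37 on the log2 scale (adjusted p = 1.45e-08 and 3.55e-10). Mcl1, a short-lived survival protein that NOXA binds, fell by 0.31 at 24 h (adjusted p = 5.17e-07) and by 0.14 at 6 h (adjusted p = 0.00847). The call of Mcl1 at 6 h was lost without TWEAK replicate 3, with a log2 fold change of −0.11 and adjusted p = 0.0764. Bcl2l2 (BCL-W) did not pass at 6 h or 24 h, with log2 fold changes of −0.07 and −0.12 (adjusted p = 0.414 and 0.0849). Its exons share bases with another annotated gene, as do those of Bad, Bak1, Bax, Bnip3 and Diablo over more than 10% of their length, and the library kit did not mark the strand, so reads of these pairs cannot be told apart fully.

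Among the BH3-only genes, Pmaip1 rose the most. Its vehicle samples had 385, 376 and 382 CPM at 6 h, and the TWEAK samples had 528, 493 and 501 CPM. At 24 h the level was 306, 285 and 286 CPM with vehicle and 485, 498 and 501 CPM with TWEAK. TWEAK samples thus lay above every vehicle sample at both times, with a log2 fold change of 0.42 at 6 h (SE 0.044, adjusted p = 1.64e-08) and 0.76 at 24 h (SE 0.045, adjusted p = 1.24e-13), the latter a 1.69-fold rise. The mean with TWEAK was 507 ± 19 CPM at 6 h and 495 ± 8.3 CPM at 24 h, whereas that of vehicle went from 381 ± 4.2 to 292 ± 12 CPM (SD, n = 3 each).

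Bik, an apoptosis inducer at the endoplasmic reticulum, was far less abundant. It had 9.785, 10.02 and 10.8 CPM with vehicle and 14.0, 12.6 and 12.0 CPM with TWEAK at 6 h. The corresponding values at 24 h were 6.97, 8.78 and 8.40 CPM with vehicle and 13.5, 12.2 and 12.7 CPM with TWEAK. These groups were apart at both times, and the log2 fold changes were 0.34 (adjusted p = 0.006) and 0.69 (adjusted p = 3.28e-06). Bid, which caspase-8 cleaves to link death receptors to mitochondria, rose by 0.22 and 0.26 on the log2 scale (adjusted p = 0.000209 and 1.69e-05). Bbc3 rose at 24 h from 24.6 ± 1.1 to 33.0 ± 2.2 CPM (SD, n = 3 each; log2 fold change 0.43, adjusted p = 1.25e-05). At 6 h its log2 fold change of 0.18 was at the threshold (adjusted p = 0.0494) and was lost in 12 of the 18 fits that left out 1 sample, among them those without vehicle replicate 1 or 3 or TWEAK replicate 2 or 3 (0.12 to 0.17, adjusted p up to 0.228).

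Not every BH3-only gene went up. Bad, whose product neutralizes BCL-XL when survival kinases are silent, fell by 0.21 at 24 h (adjusted p = 0.00476) and by 0.16 at 6 h (adjusted p = 0.0422). The call of Bad at 6 h was lost without vehicle replicate 2 or 3 or any 1 of the TWEAK replicates (−0.18 to −0.13, adjusted p up to 0.155). Bcl2l11 (BIM) had log2 fold changes of 0.01 and −0.04, with 95% intervals of −0.065 to 0.0947 at 6 h and −0.122 to 0.0451 at 24 h. Bmf, which senses the actin cytoskeleton, had log2 fold changes of −0.12 and 0.01 (adjusted p = 0.675 and 0.958). Hrk, untested, had 0 to 6 reads in the vehicle samples and the TWEAK samples at 6 h, 1 to 4 with vehicle at 24 h and 8, 22 and 9 with TWEAK at 24 h.

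**Figure D2:**
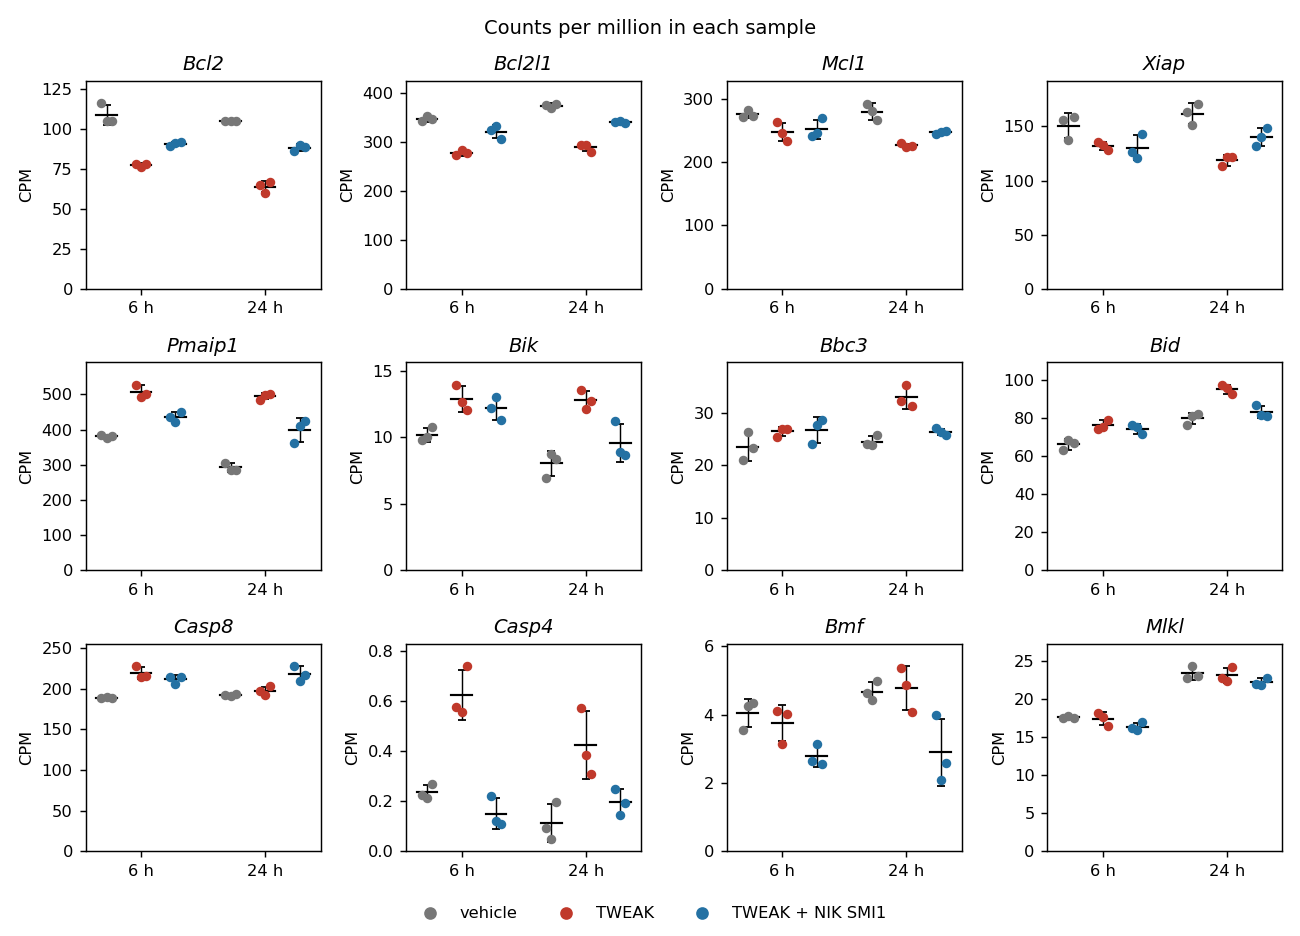
CPM of 12 members in each of the 18 samples (points), with the group mean (horizontal line) and SD (vertical bar, n = 3), grouped by time and colored by agent, each panel starting at 0. Bcl2 and Bcl2l1 samples with NIK SMI1 lie between vehicle and TWEAK, and every Mlkl sample at 24 h lies above every Mlkl sample at 6 h.

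The effector genes Bax and Bak1 changed little. The vehicle samples had 110, 116 and 116 CPM of Bax at 6 h and 109, 115 and 113 CPM at 24 h, and the TWEAK samples had 104, 110 and 114 CPM and 116, 118 and 111 CPM. These groups overlapped at both times, and the 95% interval of the log2 fold change was −0.135 to 0.0381 at 6 h and −0.0533 to 0.124 at 24 h. Bak1 rose by 0.14 at 24 h (adjusted p = 0.00244). Its log2 fold change there was 0.18 with replicate 1 as the only TWEAK sample (adjusted p = 0.0106) and 0.10 with replicates 1 and 3 left out (adjusted p = 0.17). Bok, an effector that is controlled by protein degradation, fell by 0.31 and 0.50 on the log2 scale (adjusted p = 0.000403 and 8.2e-07), from 39.1 ± 0.80 to 27.8 ± 3.1 CPM at 24 h (SD, n = 3 each).

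Downstream of the mitochondria, few members passed. Apaf1, the scaffold of the apoptosome, rose by 0.12 at 24 h (adjusted p = 0.0109) and lost the call without TWEAK replicate 3 (0.10, adjusted p = 0.0646). Casp9, Cycs and Diablo, an antagonist of inhibitor of apoptosis proteins (IAPs), did not pass at either time, with log2 fold changes between −0.14 and 0.16. Xiap, the IAP that blocks caspases directly, fell from 162 ± 9.5 to 119 ± 4.9 CPM at 24 h (SD, n = 3 each), by 0.45 on the log2 scale (adjusted p = 3.28e-07). At 6 h Xiap fell by 0.18 (adjusted p = 0.0187), a call lost without vehicle replicate 1 or 3 or TWEAK replicate 2 or 3 (−0.18 to −0.14, adjusted p up to 0.0998). The mitophagy receptor gene Bnip3 had 2.08, 2.59 and 1.42 CPM with vehicle and 1.81, 1.16 and 1.15 CPM with TWEAK at 24 h, and 1.78, 1.79 and 1.39 against 1.09, 1.07 and 1.24 CPM at 6 h. The groups overlapped at 24 h, where the log2 fold change was −0.63 (adjusted p = 0.0344), and did not overlap at 6 h, where it was −0.51 and did not pass (adjusted p = 0.112). Its call at 24 h was lost without vehicle replicate 1 or 2 or TWEAK replicate 2 or 3 (−0.60 to −0.47, adjusted p up to 0.165). Its relative Bnip3l (NIX) had log2 fold changes of −0.11 and −0.05 (adjusted p = 0.105 and 0.439).

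In the death receptor complex, Casp8 rose at 6 h and not at 24 h. Its samples had 188, 190 and 189 CPM with vehicle and 228, 215 and 216 CPM with TWEAK at 6 h, and 192, 191 and 194 against 197, 192 and 203 CPM at 24 h. The groups were apart at 6 h (log2 fold change 0.23, SE 0.034, adjusted p = 5.58e-06) and overlapped at 24 h (0.04, 95% interval −0.0287 to 0.105). Fadd, the adaptor of caspase-8, rose by 0.23 at 6 h (adjusted p = 0.021), a call lost without vehicle replicate 2 or 3 or TWEAK replicate 3 (0.20 to 0.22, adjusted p up to 0.0857). Ripk1 rose by 0.11 at 24 h (adjusted p = 0.0223), lost without vehicle replicate 1 or 2 or TWEAK replicate 3 (0.09 to 0.11, adjusted p up to 0.0934). Cflar and Tradd did not pass at either time. The 95% interval of Cflar was −0.062 to 0.119 at 6 h and −0.129 to 0.0568 at 24 h.

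Among other caspases of apoptosis, Casp6, an executioner that cleaves lamins, rose by 0.23 at 24 h (adjusted p = 0.00113). Casp2, which the PIDDosome activates, rose by 0.15 at 6 h (adjusted p = 0.0374), a call lost without any 1 of the vehicle replicates or TWEAK replicate 1 or 2 (0.11 to 0.16, adjusted p up to 0.235). The necroptosis pair gave no call. For Mlkl the log2 fold changes of 0.00 and −0.01 had 95% intervals of −0.109 to 0.109 and −0.118 to 0.1, and for Ripk3 the intervals were much wider, −0.493 to 0.814 at 6 h and −0.683 to 0.687 at 24 h, so that a small change of its RNA was not detectable at this depth.

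Casp4 had the largest fold change of any member, on few reads. It had over 10 reads in 8 samples, of which 6 were the TWEAK samples, so it was tested only through the group in which it was high, and its calls are no support for a change among the members. At 6 h it had 7, 8 and 14 reads with vehicle (0.227, 0.214 and 0.270 CPM) and 20, 28 and 28 reads with TWEAK (0.575, 0.557 and 0.739 CPM). At 24 h it had 4, 1 and 4 reads with vehicle (0.0935, 0.0507 and 0.195 CPM) and 13, 18 and 13 reads with TWEAK (0.573, 0.385 and 0.311 CPM). Every TWEAK sample lay above every vehicle sample at the same time, and the log2 fold changes were 1.37 (SE 0.34, adjusted p = 0.00319) and 1.85 (SE 0.48, adjusted p = 0.00311). With no filter on reads they were 1.38 and 1.86 (adjusted p = 0.0114 and 0.00792). Casp12, a caspase of the endoplasmic reticulum, had 1.56, 1.71 and 1.75 CPM with vehicle and 2.70, 2.84 and 1.85 CPM with TWEAK at 6 h, where it rose by 0.57 (adjusted p = 0.0188). That call was lost without vehicle replicate 1 or TWEAK replicate 1 or 2 (0.44 to 0.54, adjusted p up to 0.138). At 24 h Casp12 had 2.13, 2.28 and 2.88 CPM with vehicle and 2.86, 2.40 and 2.15 CPM with TWEAK, and these samples overlapped. Gsdmd, which had over 10 reads in 4 samples, 3 of them given TWEAK alone, did not pass, and its 95% interval at 24 h reached from −0.315 to 2.99.

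**Figure D3:**
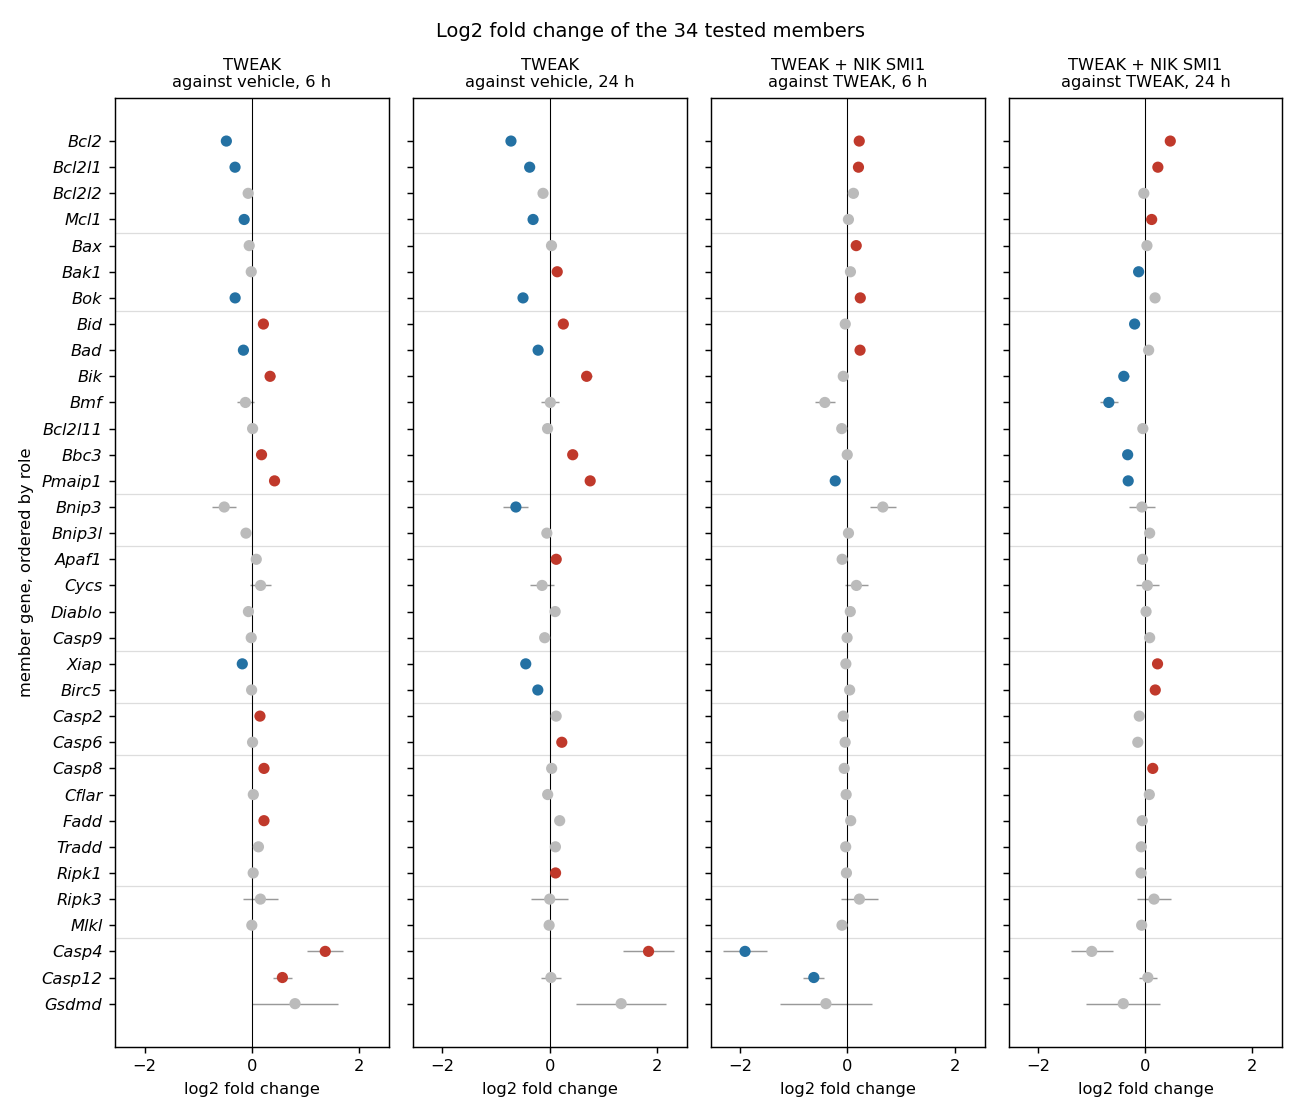
Log2 fold change (x axis) with its standard error for the 34 tested members, ordered by role, in 4 comparisons, with red for members called higher, blue for members called lower and gray for the rest. Bcl2 and Bcl2l1 fall with TWEAK and are higher when NIK SMI1 is added, Pmaip1 shows the opposite signs, and Casp4 has the widest bars of the called members.

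The comparison of TWEAK with NIK SMI1 against TWEAK alone asks how much of this changed when the compound was added. The paper reports that the compound, though selective, also inhibited KHS1, LRRK2 and PKD1 in kinase assays. Whether an effect of the compound came from NIK alone was not tested. The survival genes Bcl2 and Bcl2l1 were higher with the inhibitor and Pmaip1 was lower at both times, and at 24 h Bid, Bik, Bbc3 and Bmf were lower as well. Genes that promote death were also among those higher, namely Bax, Bok and Bad at 6 h and Casp8 at 24 h. At 6 h, 5 members were higher and 3 lower, which was 23.5% of the tested members against 11.0% of all tested genes (5.34% higher, 5.70% lower). At 24 h, 6 were higher and 6 lower, 35.3% against 18.5% (10.2% higher, 8.29% lower). Samples of the groups did not overlap for 12 members at 6 h and 18 at 24 h, against 26.6% and 33.8% of all tested genes. The median absolute log2 fold change of the members was 0.089 and 0.116, against 0.093 and 0.101 over all tested genes. This comparison shares the TWEAK samples with the one against vehicle, so opposite signs in the 2 are in part fixed by those samples. Calls kept without any 1 of the 18 samples numbered 5 of 8 at 6 h and 9 of 12 at 24 h. With TWEAK replicates 1 and 3 left out at 24 h, Bik, Xiap, Birc5, Mcl1 (0.14, adjusted p = 0.168) and Bak1 (−0.08, adjusted p = 0.424) lost their calls.

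Bcl2 was higher with NIK SMI1 by 0.22 at 6 h (adjusted p = 0.00125) and by 0.47 at 24 h (adjusted p = 1.1e-08), in the samples given above. Bcl2l1 was higher by 0.21 and 0.24 (adjusted p = 5.21e-05 and 3.53e-06). Xiap was higher at 24 h by 0.23 (adjusted p = 0.00394), and with TWEAK replicates 1 and 3 left out it stood at 0.20 (adjusted p = 0.135). Mcl1 was higher at 24 h by 0.12 (adjusted p = 0.0357), a call lost without any 1 of the TWEAK replicates or replicate 2 or 3 with the inhibitor (0.11 to 0.13, adjusted p up to 0.121). At 6 h Mcl1 stood at 0.02 (adjusted p = 0.835).

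On the other side of the balance, Pmaip1 had 435, 421 and 450 CPM with NIK SMI1 at 6 h and 361, 409 and 425 CPM at 24 h. All of these samples lay below the TWEAK samples and above the vehicle samples of the same time, with log2 fold changes against TWEAK of −0.23 (adjusted p = 0.000699) and −0.32 (adjusted p = 4.33e-06). Bik had 12.2, 13.0 and 11.3 CPM with the inhibitor at 6 h, within the TWEAK range in part, and 11.2, 8.87 and 8.68 CPM at 24 h, below every TWEAK sample. Its log2 fold change at 24 h was −0.40 (adjusted p = 0.00271), and −0.33 with adjusted p = 0.134 when TWEAK replicates 1 and 3 were left out. Bid and Bbc3 were lower at 24 h by 0.20 and 0.33 on the log2 scale (the log2 fold changes were −0.20 and −0.33, adjusted p = 0.000786 and 0.000596) and had log2 fold changes of −0.04 and 0.00 at 6 h.

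Bmf was lower with NIK SMI1 although it had not passed the test with TWEAK alone. At 6 h it had 3.56, 4.25 and 4.33 CPM with vehicle, 4.11, 3.14 and 4.01 CPM with TWEAK, and 2.64, 3.15 and 2.55 CPM when the inhibitor was added. At 24 h the values were 4.63, 4.41 and 4.98 CPM with vehicle, 5.38, 4.86 and 4.09 CPM with TWEAK, and 3.99, 2.09 and 2.60 CPM with the inhibitor. The samples with the inhibitor lay below all vehicle samples at both times, and against TWEAK the log2 fold change at 24 h was −0.68 (SE 0.17, adjusted p = 0.00432), the only fall of more than 1.5-fold called among the members at 24 h, which 1.75% of all tested genes passed downward. Without replicate 2 with the inhibitor it was −0.49, under 1.5-fold (adjusted p = 0.0454). At 6 h it was −0.42 (adjusted p = 0.156).

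Casp4 had 8, 3 and 2 reads with NIK SMI1 at 6 h (0.223, 0.120 and 0.111 CPM), below every TWEAK sample, and the log2 fold change was −1.91 (SE 0.41, adjusted p = 0.00186). At 24 h it had 11, 5 and 6 reads (0.248, 0.145 and 0.195 CPM), and the log2 fold change of −0.998 did not pass (unadjusted p = 0.0175, adjusted p = 0.0807). Casp12 had 1.53, 1.32 and 2.11 CPM with the inhibitor at 6 h, which overlapped the TWEAK samples, and 2.64, 2.61 and 2.28 CPM at 24 h. Its log2 fold change of −0.63 at 6 h (adjusted p = 0.0353) was lost without replicate 1 or 2 of either group (−0.58 to −0.50, adjusted p up to 0.192). Casp4 and Casp12 were the members called lower by more than 1.5-fold at 6 h, which 1.10% of all tested genes passed downward. Casp4 passed the read filter only through the TWEAK samples, which are the reference here. Its call and its place in the counts are therefore no support for a fall among the members. Past the same fold, 0 members were called higher with the inhibitor at either time, against 0.296% of all tested genes at 6 h and 1.51% at 24 h.

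Casp8 and Bax were higher with the inhibitor at times at which TWEAK alone gave no call, and Bad, Bok and Bak1 moved against the direction of TWEAK. Casp8 had 215, 206 and 214 CPM with NIK SMI1 at 6 h and 228, 209 and 217 CPM at 24 h. At 24 h these samples lay above every TWEAK and every vehicle sample, with a log2 fold change against TWEAK of 0.14 (adjusted p = 0.00331). Bax had 116, 134 and 119 CPM at 6 h and 121, 115 and 117 CPM at 24 h, and was higher than with TWEAK at 6 h by 0.16 (adjusted p = 0.0154), a call lost without TWEAK replicate 1 (0.13, adjusted p = 0.132) or replicate 2 with the inhibitor (0.10, adjusted p = 0.198). Bad was higher at 6 h by 0.24 (adjusted p = 0.00669). Bok was higher at 6 h by 0.24 (adjusted p = 0.0157), lost without TWEAK replicate 1 or 2 or replicate 2 with the inhibitor (0.17 to 0.21, adjusted p up to 0.162). Bak1 was lower at 24 h, at −0.12 on the log2 scale (adjusted p = 0.0142), lost without TWEAK replicate 1 or replicate 3 with the inhibitor (−0.11 to −0.10, adjusted p up to 0.078). Bnip3 had 1.976, 1.956 and 1.33 CPM at 6 h and 1.06, 1.19 and 1.59 CPM at 24 h with the inhibitor, and its log2 fold changes against TWEAK of 0.66 and −0.06 did not pass (adjusted p = 0.0787 and 0.912). The genes Bcl2l11, Cflar, Ripk1, Ripk3 and Mlkl did not pass at either time, and the 95% interval of Mlkl was −0.217 to 0.0144 at 6 h and −0.172 to 0.0394 at 24 h.

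Cells given both TWEAK and NIK SMI1 were then set against vehicle. Bcl2 remained lower by 0.25 on the log2 scale at both times (log2 fold changes −0.25 and −0.25, adjusted p = 0.000211 and 0.000118), and Pmaip1 remained higher by 0.20 and 0.44 (adjusted p = 0.00271 and 2.35e-08). Casp8 was higher by 0.17 and 0.18 (adjusted p = 0.000964 and 0.000278). At 6 h, 4 members were higher and 5 lower, which was 26.5% against 13.9% of all tested genes (7.23% higher, 6.70% lower), and at 24 h 2 were higher and 7 lower, 26.5% against 17.9% (8.07% higher, 9.83% lower). Groups did not overlap for 13 and 12 members, against 26.0% and 34.0% of all tested genes. Fadd and Bid were the other members called higher at 6 h, by 0.29 and 0.18 (adjusted p = 0.00979 and 0.00541). Of the falls at 24 h, Bcl2, Bcl2l1, Mcl1 and Bok (log2 fold changes −0.25, −0.14, −0.19 and −0.31) kept their calls when any 1 sample was left out.

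The remaining falls against vehicle lost their calls in some of the fits that left out 1 sample. Bmf at 24 h stood at −0.67 on the log2 scale (adjusted p = 0.00692), which became −0.9999 without replicate 1 with the inhibitor and −0.48 without replicate 2 (adjusted p = 0.0609). At 6 h Bmf stood at −0.54 (adjusted p = 0.0456) and lost the call in 9 of the 18 fits, among them those without any 1 sample with the inhibitor or vehicle replicate 2 or 3 (−0.64 to −0.49, adjusted p up to 0.16). Bnip3 fell at 24 h by 0.69 (adjusted p = 0.0404) and lost the call without vehicle replicate 1 or 2 or replicate 1 or 2 with the inhibitor (−0.66 to −0.53, adjusted p up to 0.19). Xiap at 24 h (−0.22, adjusted p = 0.00666) was lost without vehicle replicate 3 or replicate 1 with the inhibitor (−0.18 to −0.17, adjusted p up to 0.058). At 6 h, Bcl2l1 (−0.11) lost its call without vehicle replicate 1 or 2 or replicate 3 with the inhibitor (−0.11 to −0.07, adjusted p up to 0.153). Mcl1 (−0.12) lost it without vehicle replicate 1 or 2 or replicate 1 or 2 with the inhibitor (−0.13 to −0.09, adjusted p up to 0.193), and Xiap (−0.21) without vehicle replicate 1 or 3 or replicate 1 or 2 with the inhibitor (−0.19 to −0.16, adjusted p up to 0.109).

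Ratios of RPKM within each sample were formed for Pmaip1 (NOXA) to Mcl1 and for Bax to Bcl2, with no test. They restate the changes of these genes given above and are no separate support. The ratio of Pmaip1 to Mcl1 was 2.01 ± 0.068 with vehicle, 2.99 ± 0.12 with TWEAK and 2.52 ± 0.10 with the inhibitor added at 6 h (SD, n = 3 each). At 24 h it was 1.52 ± 0.043, 3.18 ± 0.090 and 2.35 ± 0.18. The samples of the 3 groups did not overlap at either time, and those with the inhibitor lay between the others. The ratio of Bax to Bcl2 at 24 h was 9.28, 9.71 and 9.54 with vehicle, 15.95, 17.5 and 14.8 with TWEAK, and 12.5, 11.4 and 11.7 with NIK SMI1, in the same order. At 6 h the ratio of Bax to Bcl2 was 12.5 ± 0.57 with TWEAK and 12.1 ± 0.88 with the inhibitor, and these samples overlapped. As RNA ratios these values do not measure protein.

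Time in culture moved members as well. Between 6 h and 24 h in vehicle, Birc5, the gene of survivin, rose from 16.5 ± 1.2 to 40.9 ± 1.3 CPM (SD, n = 3 each; log2 fold change 1.24, SE 0.062, adjusted p = 1.19e-14). Mlkl rose from 17.6 ± 0.12 to 23.3 ± 0.85 CPM (0.34, adjusted p = 3.14e-05) and Bid by 0.20 (adjusted p = 0.000556). Pmaip1 fell by 0.45 (adjusted p = 1.09e-08), Bik by 0.44 (adjusted p = 0.00146), Cflar by 0.32 (adjusted p = 5.19e-06) and Bcl2l2 by 0.26 (adjusted p = 0.0006). Bak1 also passed at −0.10 (adjusted p = 0.0325), a call lost without vehicle replicate 1 or 2 at 6 h or any 1 vehicle replicate at 24 h (−0.11 to −0.09, adjusted p up to 0.0933) and under scaling by library size alone (−0.04, adjusted p = 0.467). In all, 3 members were higher and 5 lower, 23.5% of the tested members against 29.9% of all tested genes (15.5% higher, 14.4% lower), and 14 members did not overlap, against 42.0% of all tested genes. With library size alone, which moved the median of all genes from 0.0053 to 0.0707, 6 members were higher and 4 lower, and the share of all calls that were higher went from 51.9% to 74.7%.

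Survivin also serves the chromosomal passenger complex in cell division, and Birc5 moved with proliferation genes. The summed level of 12 proliferation genes was 390 to 406 CPM in vehicle at 6 h and 904 to 931 CPM at 24 h, and all 12 rose over time, by a median of 1.17 on the log2 scale. At 24 h, 9 of the 12 fell with TWEAK (sum 763 to 798 CPM), against 20.7% of all tested genes, and 5 were higher with NIK SMI1 than with TWEAK (sum 857 to 891 CPM), against 10.2%. Birc5 fell by 0.22 with TWEAK at 24 h (adjusted p = 0.00359) and was higher by 0.19 with the inhibitor (adjusted p = 0.0207). Without TWEAK replicates 1 and 3 these values were −0.11 and 0.07 (adjusted p = 0.306 and 0.642), and with replicate 1 as the only TWEAK sample the first was −0.37 (adjusted p = 0.00122). The inhibitor call was also lost without TWEAK replicate 1 or 3 or replicate 1 or 3 with the inhibitor (0.13 to 0.19, adjusted p up to 0.138). The part of proliferation in the values of Birc5 was not tested.

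**Figure D4:**
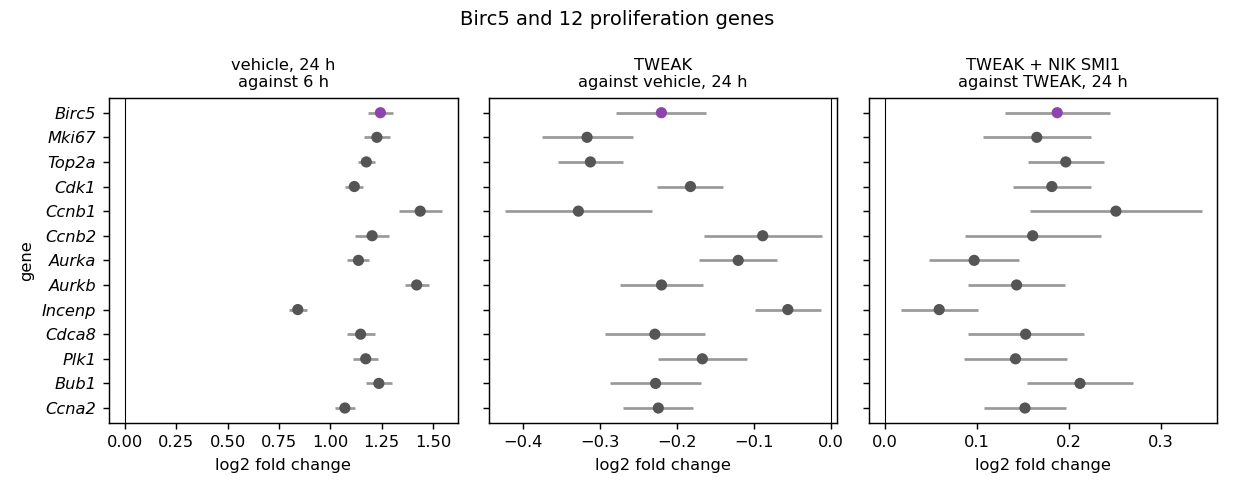
Log2 fold change with its standard error for Birc5 (purple) and 12 proliferation genes (gray) in 3 comparisons, each panel with its own x axis. Birc5 lies within the range of the proliferation genes in all 3, near 1.24 for time, −0.22 for TWEAK and 0.19 for NIK SMI1.

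Whether an effect differed between 6 h and 24 h was tested directly. The TWEAK effect differed for 4 of the 34 members (11.8%, against 8.91% of all tested genes, 3.24% higher and 5.67% lower). Its log2 fold change was higher at 24 h for Pmaip1 and lower for Bcl2, Xiap and Casp8. The rise of Pmaip1 and the falls of Bcl2 and Xiap were thus larger at 24 h, and the rise of Casp8 was smaller. The NIK SMI1 effect differed for 4 members (11.8%, against 4.74%, 3.11% higher and 1.62% lower). Its log2 fold change was higher at 24 h for Bcl2 and Casp8 and lower for Bak1 and Bbc3. The rise of Bcl2 with the inhibitor was larger at 24 h. Casp8 went from −0.06 to 0.14, Bak1 from 0.06 to −0.12 and Bbc3 from 0.00 to −0.33. Of these 8 differences, those of the TWEAK effect for Pmaip1 (0.33, adjusted p = 0.000633) and Casp8 (−0.19, adjusted p = 0.0104) were kept when any 1 sample was left out.

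Other genes of these pathways, 62 in 6 lists, gave 47 tested genes. The lists were written with earlier results of these data known, so their counts are a description and no independent support. Genes named from them are those with the smallest adjusted p for TWEAK at 24 h in their list. With TWEAK, 17 of the 47 rose and 3 fell at 6 h, where 11.7% of all tested genes rose and 12.0% fell, and 19 rose and 5 fell at 24 h, where 18.3% rose and 20.7% fell. With NIK SMI1 against TWEAK, 4 were higher and 8 lower at 6 h (5.34% and 5.70% of all tested genes), and 3 higher and 11 lower at 24 h (10.2% and 8.29%). The same shares are the background of the counts per list that follow. Among the executioner caspases, other IAPs and substrates, 4 of 11 rose at 6 h and 5 of 11 at 24 h, and none fell. Birc3 (cIAP2), an NF-κB target and ubiquitin ligase that restrains NIK, rose by 2.48 and 2.83 on the log2 scale and was lower with the inhibitor at both times (−0.82 and −1.22). Its neighbor Birc2 (cIAP1) rose by 0.98 and 1.19. These IAP genes thus moved the opposite way to Xiap in the same samples.

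Of the death receptors and their ubiquitin regulators, 4 of 12 rose and 1 fell at 6 h, and 5 rose and 1 fell at 24 h, with median log2 fold changes of 0.08 and 0.06. Tnfaip3 (A20), a brake on NF-κB and on cell death, rose by 0.64 and 0.75, and Traf2, a partner of the cIAPs, by 0.68 and 0.83. Of 14 genes of the p53 and stress response, 6 rose and 1 fell at 6 h, and 5 rose and 2 fell at 24 h, with median log2 fold changes of 0.04 and −0.01. Trp53 (p53) rose by 0.38 and 0.39 and Mdm2, its ubiquitin ligase, by 0.28 and 0.36. Of 4 tested genes listed as partners in necroptosis, 1 rose and 1 fell at 6 h, and 2 rose and 2 fell at 24 h. Tlr3, the receptor for double-stranded RNA, fell by 0.66 and 1.39. Ripk2 rose by 0.33 and 0.71, but it is a kinase downstream of NOD receptors, so its rise is not read as one of necroptosis genes. Of the pyroptosis and inflammasome genes only 3 of 11 were tested, and Ninj1, which ruptures the membrane of dying cells, rose by 0.42 and 0.43. The 8 other BCL2 family genes gave 3 tested, of which Bcl2l15 rose, by 0.42 and 1.04.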

How the data were processed

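RNASeq was measured in 18 samples. Per the labels and the study's methods, the authors used GSNAP within HTSeqGenie against NCBI build 37 and deposited unnormalized counts of uniquely aligned reads within exons, together with RPKM (counts scaled by exonic width and by a total per sample). The labels name DESeq2 for processing. The counts were tested in edgeR 4.0.16 (R 4.3.3) with TMM scaling and the quasi-likelihood test, as 6 groups of 3, on 15521 genes with more than 10 reads in at least 4 samples, and p-values were adjusted by Benjamini-Hochberg over those genes (called: below 0.05). CPM used the summed gene counts, and RPKM served only to compare genes. The common biological coefficient of variation was 0.0404. Symbols, promoters and exon overlaps came from RefSeq and GENCODE tables of GRCm38, by identifier (31049 of 36528 matched). Members and lists were chosen with earlier results of these data known. Sample values were given for members called with more than 1.5-fold change with TWEAK or with NIK SMI1 against TWEAK and for the 3 with the highest RPKM, and at most 2 genes were named per pathway list, by smallest adjusted p at 24 h. Alternatives were DESeq2 1.42.0, other scalings and filters, each time point alone, and leaving out samples. The scripts were tested on simulated data.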

Additional observations from a re-analysis of the deposited data

Results flagged for a closer look

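For 8 results the effect at 24 h differed from that at 6 h by an interaction test in edgeR (adjusted p below 0.05). The TWEAK effect differed by −0.25 (log2) for Bcl2 (adjusted p = 0.0123), by 0.33 for Pmaip1 (adjusted p = 0.000633), by −0.27 for Xiap (adjusted p = 0.0308) and by −0.19 for Casp8 (adjusted p = 0.0104). The NIK SMI1 effect differed by 0.25 for Bcl2 (adjusted p = 0.0247), by −0.18 for Bak1 (adjusted p = 0.0376), by −0.32 for Bbc3 (adjusted p = 0.0493) and by 0.20 for Casp8 (adjusted p = 0.0138). Both contrasts share the TWEAK samples. The difference for Bcl2 under TWEAK was lost without TWEAK 24 h replicate 2 (−0.19, adjusted p = 0.063), as was that of Casp8 under NIK SMI1 (0.18, adjusted p = 0.0547). That of Xiap under TWEAK was lost without vehicle 6 h replicate 2, TWEAK 6 h replicate 1 or 2, vehicle 24 h replicate 1 or 3 or TWEAK 24 h replicate 1 (−0.27 to −0.20, adjusted p up to 0.107). Under NIK SMI1, that of Bcl2 was lost without TWEAK 6 h replicate 3, TWEAK 24 h replicate 2, or replicate 1 or 2 at 6 h or 2 or 3 at 24 h with the inhibitor (0.20 to 0.25, adjusted p up to 0.0998). That of Bak1 was lost in 7 of the 18 fits that left out 1 sample (−0.18 to −0.14, adjusted p up to 0.141) and that of Bbc3 in 14 (adjusted p up to 0.162), the highest p being without TWEAK 6 h replicate 1 and without TWEAK 24 h replicate 2.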

How the results depend on the processing

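Across 86 single calls no log2 fold change reversed under any alternative. DESeq2 lost 1 of 85 (Casp4 with NIK SMI1 at 6 h had no adjusted p there), its size factors in edgeR lost 1, filterByExpr lost 0, library size alone lost 4, no filter lost 3 and each time point alone lost 7 of 70. With only TWEAK replicate 2 at 24 h, an alternative chosen after seeing the data in which that sample is assumed to vary like the other groups, 11 of 29 calls were lost, with fewer samples. With only TWEAK replicate 1, set against vehicle, 4 of 17 calls were lost, giving 7 members higher and 6 lower. The fit with replicate 2 called 5 members lower with TWEAK at 24 h in place of 8, and 3 higher with NIK SMI1 in place of 6. By the study's fold cut-offs, TWEAK gave 1 member higher and 0 lower at each time, and NIK SMI1 gave 0 higher at each time and 1 lower at 24 h. With each time point alone, 3 members rather than 5 were lower with TWEAK and NIK SMI1 against vehicle at 6 h. Library size alone gave 6 members higher over time in vehicle, 2 higher in the TWEAK interaction and 1 lower in the NIK SMI1 interaction, and no filter also gave 1 there. Of these moves, the cause was not tested except where fewer samples or a fold cut-off made them by construction.

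Leaving out 1 sample at a time gave 6 to 9 members higher and 3 to 6 lower with TWEAK at 6 h, and 7 to 10 higher and 7 to 9 lower at 24 h. With NIK SMI1 against TWEAK it gave 3 to 6 higher and 2 to 3 lower at 6 h, and 4 to 7 higher and 5 to 7 lower at 24 h. Against vehicle it gave 4 to 6 higher and 2 to 5 lower at 6 h, and 2 to 3 higher and 5 to 8 lower at 24 h. Over time in vehicle it gave 3 higher and 4 to 6 lower. The interactions gave 1 to 2 higher and 2 to 4 lower for TWEAK, and 0 to 3 higher and 0 to 2 lower for NIK SMI1. No paired analysis was possible because the labels carry no replicate numbers. Depth limited Ripk3, Casp4, Gsdmd, Hrk and Casp1, and for a single gene 3 samples against 3 allow no exact permutation p below 0.1.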
